A study of Sus scrofa with 9 samples.

Results

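AFP, AHSG, TF and APOA1 encode 4 proteins that circulate in fetal plasma, and they were taken by symbol from a table of 19643 gene entries, where each matched 1 entry. AFP (ENSSSCG00000008949) encodes alpha-fetoprotein, AHSG (ENSSSCG00000011799) encodes fetuin-A, TF (ENSSSCG00000011640) encodes transferrin and APOA1 (ENSSSCG00000030921) encodes apolipoprotein A-I. In mammals the liver is the main source of all 4 proteins before birth, and the yolk sac also makes alpha-fetoprotein and transferrin. Alpha-fetoprotein carries fatty acids and other small ligands in the fetus, and its gene is shut off in the liver after birth. Fetuin-A, abundant in fetal serum, binds calcium phosphate and keeps it from precipitating, transferrin delivers iron to dividing cells, and apolipoprotein A-I is the core protein of high-density lipoprotein. Intestine makes apolipoprotein A-I as well, and in the chicken embryonic skeletal muscle does too.

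The libraries came from the back muscle longissimus dorsi of embryonic pigs. There were 3 libraries of the Tibetan breed and 3 of the Wujin breed, both indigenous to China, and 3 of the Large White breed. No library is from after birth, and the labels give no gestational day, sex, treatment or batch. Only 1 Wujin library carries a number of its own, so the others are called Wujin a and Wujin b. The labels do not say whether a breed's libraries are from separate animals, so p-values measure only how far these samples spread, and that spread may be technical. In bulk muscle RNA, fewer cells of a type and less RNA per cell cannot be told apart.

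Values are FPKM, fragment numbers scaled by transcript length and library size, so levels can be set side by side between genes. The number of fragments is unknown, but steps between low values place every library at 1 to 1.22 times the depth of Large White 1. Differences are given on the scale log2(FPKM + 1), which understates the change of low genes, and were tested with limma over the 13106 entries whose mean reached 1 FPKM. A gene is called where its Benjamini-Hochberg adjusted p is under 0.05. The median difference of all tested entries was -0.77 for Tibetan minus Large White, -0.20 for Wujin minus Large White and -0.55 for Tibetan minus Wujin, and a relative difference is the fitted one minus that median. The desmin gene DES, a muscle marker, stood at 1046 to 3053 FPKM over the 9 libraries, as a muscle sample should hold. ACTA1, the skeletal muscle actin, was listed at 0 in Tibetan 2 and at 37420 and 41830 FPKM in Tibetan 1 and 3, so an exact 0 in this table may be a failed estimate.

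Libraries of the same breed were not alike for these genes. Large White 2 and 3 stood far above Large White 1 for AFP, AHSG and TF, and Tibetan 1, followed by Tibetan 2, stood above Tibetan 3 for AHSG, TF and many other plasma protein genes. The differences of the 4 genes are given with and without these libraries, as are the other named calls that were lost without them.

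AFP was present above 1 FPKM in Large White 2 and 3 and in no other library. It stood at 0.0295 FPKM in Tibetan 1 and was listed at 0 in Tibetan 2 and 3. It stood at 0.109 FPKM in Wujin 1 and 0.0318 FPKM in Wujin b and was listed at 0 in Wujin a. In the Large White libraries it stood at 0.205, 6.23 and 8.75 FPKM in Large White 1, 2 and 3. Every Large White library lay above every Tibetan and Wujin library, but Large White 1 was closer to those 6 than to its own breed.

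AHSG spanned 0.103 to 43.0 FPKM over the 9 libraries. It stood at 7.72, 1.14 and 0.103 FPKM in Tibetan 1, 2 and 3. It stood at 0.261, 0.145 and 0.184 FPKM in Wujin 1, a and b. It stood at 1.10, 30.0 and 43.0 FPKM in Large White 1, 2 and 3. The Wujin libraries were low without exception and lay below all Large White libraries, whereas the Tibetan libraries overlapped both other breeds, with Large White 1 below Tibetan 1 and 2.

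TF had the same 5 highest libraries as AHSG, in the same order. It stood at 7.41, 2.37 and 0.620 FPKM in Tibetan 1, 2 and 3, at 0.421, 0.388 and 0.0791 FPKM in Wujin 1, a and b, and at 0.781, 11.1 and 15.0 FPKM in Large White 1, 2 and 3. All Wujin libraries lay below all Tibetan and all Large White libraries, and the Tibetan and Large White ranges overlapped. RefSeq's pig annotation (Sscrofa11.1) has 2 neighbouring genes under the symbol TF, of which 1 also bears the name PICA, the porcine inhibitor of carbonic anhydrase, a member of the transferrin family. The deposited table has a single entry that matches TF, and how reads of the 2 copies were divided is uncertain.

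APOA1 was the most abundant of the 4 genes and the most even within a breed. It stood at 9.75, 13.9 and 13.1 FPKM in Tibetan 1, 2 and 3. It stood at 65.3, 72.1 and 83.0 FPKM in Wujin 1, a and b, and at 63.5, 76.2 and 73.8 FPKM in Large White 1, 2 and 3. All Tibetan libraries lay below all libraries of both other breeds, and the Wujin and Large White ranges overlapped. By its mean over the 9 libraries APOA1 ranked above 95.2% of all entries, AHSG above 76.1%, TF above 59.7% and AFP above 41.1%.

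**Figure D1:**
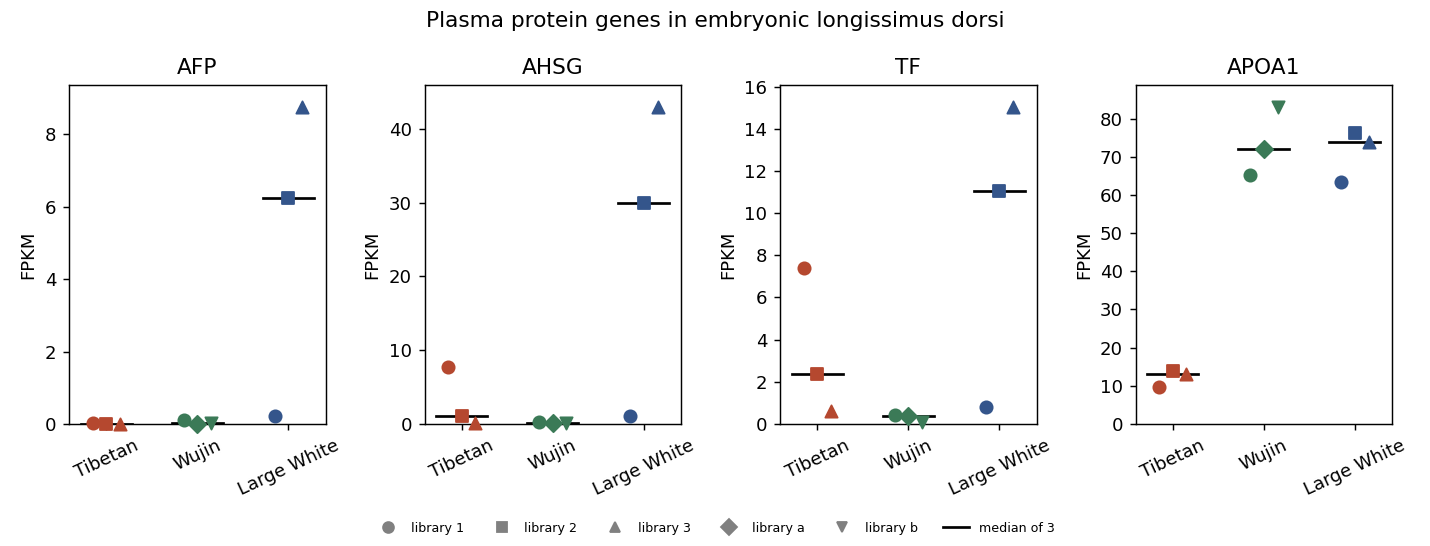
FPKM of AFP, AHSG, TF and APOA1 (linear axes from 0, a scale for each gene) in the 3 Tibetan, 3 Wujin and 3 Large White libraries. Symbols mark the library and black bars the median of 3. Large White 2 and 3 are high for AFP, AHSG and TF at up to 8.75, 43.0 and 15.0 FPKM, while for APOA1 the 3 Tibetan libraries, at 9.75 to 13.9 FPKM, lie below the other 6.

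All 4 genes passed the filter on low values, but AFP did so only through Large White 2 and 3, so its place among tested entries already required a high level there. In the comparison of Tibetan with Large White, 2 of the 4 genes were called, AFP and APOA1, both lower in Tibetan muscle. Of all tested entries, 63.2% were called lower and 76.2% were called in either direction, so a count of 2 in 4 does not stand above the background.

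APOA1 fell in Tibetan muscle to 12.2 ± 2.19 FPKM, against 71.2 ± 6.76 FPKM in Large White muscle (SD, n = 3 each), and the ratio of the means was 0.172. The difference was -2.46 ± 0.16 on the log2(FPKM + 1) scale (SE; 95% interval -2.81 to -2.10; limma, adjusted p = 1.13e-06) and -1.68 relative to the median entry. It was called under all 22 alternative settings run, with a relative difference of -2.03 to -1.51. Without the libraries that stand apart it was -2.35 (Tibetan 1 and 2 left out) and -2.30 (Large White 2 and 3 left out), and both were called.

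AFP fell by 2.12 ± 0.64 (SE) in Tibetan muscle (95% interval -3.56 to -0.68; limma, adjusted p = 0.0128; relative difference -1.35). The filter admitted AFP only through Large White 2 and 3, so its test had to favour a difference and its p supports none. The call also rested on these 2 libraries. Without Large White 2 it was -1.76 (adjusted p = 0.0501), and without both it was -0.25 (adjusted p = 0.0957), or 0.49 relative to the median entry. It was also not called without Tibetan 1 and 2, at -2.14 (adjusted p = 0.117).

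AHSG and TF were not called between Tibetan and Large White. AHSG averaged 2.99 ± 4.13 FPKM in Tibetan and 24.7 ± 21.4 FPKM in Large White libraries (SD, n = 3 each), with a difference of -2.37 ± 1.09 (SE; 95% interval -4.85 to 0.10; limma, adjusted p = 0.0738). TF averaged 3.47 ± 3.53 FPKM in Tibetan and 8.96 ± 7.36 FPKM in Large White libraries (SD, n = 3 each), with a difference of -0.97 ± 0.81 (SE; 95% interval -2.81 to 0.87; limma, adjusted p = 0.299). Both differences turned positive without Large White 2 and 3, at 0.38 for AHSG and 1.01 for TF, and neither was then called. Without Large White 1 both were called, at -3.75 for AHSG (adjusted p = 0.00214) and -1.96 for TF (adjusted p = 0.0162), and AHSG was also called without Tibetan 1, at -3.21 (adjusted p = 0.0314).

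In the comparison of Wujin with Large White, which uses the same Large White libraries, 0 of the 4 genes were called by limma, against 6.52% of all tested entries in either direction and 4.85% called lower. At an unadjusted p under 0.05 the count was 3 of 4, against 32.4% of entries, and limma without the trend called 0. AFP stood at -2.07 ± 0.64 (adjusted p = 0.0724), AHSG at -3.57 ± 1.09 (adjusted p = 0.0724) and TF at -2.45 ± 0.81 (adjusted p = 0.0844; SE). AHSG averaged 0.197 ± 0.0590 FPKM in Wujin and 24.7 ± 21.4 FPKM in Large White libraries (SD, n = 3 each), and TF averaged 0.296 ± 0.189 FPKM in Wujin and 8.96 ± 7.36 FPKM in Large White libraries. Without Large White 1 all 3 were called, at -3.01 for AFP (adjusted p = 8.26e-05), -4.95 for AHSG (adjusted p = 0.0240) and -3.43 for TF (adjusted p = 0.0373). The limit that the filter sets on the AFP test holds here as well. Without Large White 2 and 3 the 3 differences were -0.20, -0.81 and -0.47, and none was called.

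APOA1 averaged 73.5 ± 8.93 FPKM in Wujin and 71.2 ± 6.76 FPKM in Large White libraries (SD, n = 3 each). The difference was 0.04 ± 0.16 (SE; limma, adjusted p = 0.862), and its 95% interval of -0.31 to 0.40 is the range of differences these libraries allow.

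In the comparison of Tibetan with Wujin, 1 of the 4 genes was called, APOA1, which was lower in Tibetan muscle, against 53.9% of tested entries called lower and 67.7% in either direction. APOA1 averaged 12.2 ± 2.19 FPKM in Tibetan and 73.5 ± 8.93 FPKM in Wujin libraries (SD, n = 3 each), with a difference of -2.50 ± 0.16 (SE; 95% interval -2.85 to -2.15; limma, adjusted p = 1.37e-06; relative difference -1.95). AFP was at or near 0 in both breeds, with a difference of -0.05 ± 0.64 (SE; adjusted p = 0.951). The difference was 1.20 ± 1.09 for AHSG (SE; 95% interval -1.28 to 3.67; adjusted p = 0.356) and 1.48 ± 0.81 for TF (SE; 95% interval -0.36 to 3.31; adjusted p = 0.135), and neither was called. Without Tibetan 1 and 2 the AHSG difference was -0.12 (adjusted p = 0.958), and without Large White 1, whose spread enters the shared error, TF was called at 1.48 (adjusted p = 0.0355).

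**Figure D2:**
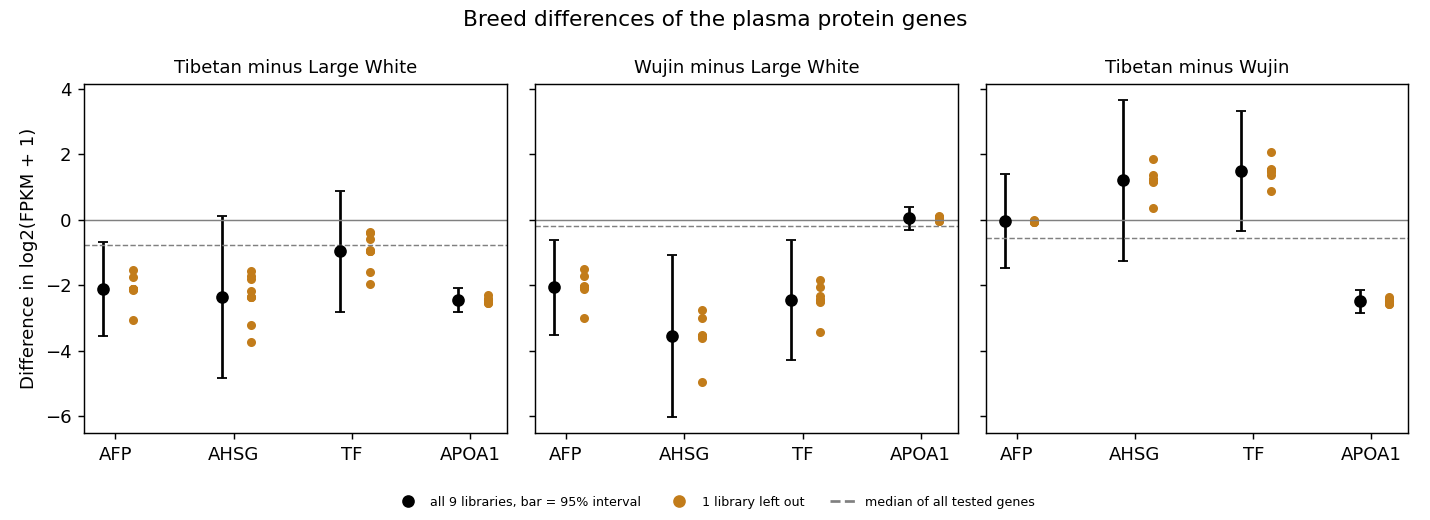
Difference in log2(FPKM + 1) for AFP, AHSG, TF and APOA1 in each pair of breeds. Black points are the limma estimate over all 9 libraries with its 95% interval, orange points the estimates with 1 library left out, and the dashed line the median of all tested genes. APOA1 has short intervals and orange points within -2.59 to -2.31 in both comparisons with Tibetan, while the AHSG points run over -3.75 to -1.56 for Tibetan minus Large White.

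AFP, AHSG and TF differed widely between libraries of the same breed. AFP was 30.4-fold higher in Large White 2 than in Large White 1 and 42.7-fold higher in Large White 3, and AHSG was 27.3-fold and 39.2-fold higher. TF was 14.2-fold and 19.2-fold higher, whereas APOA1 was 1.20-fold and 1.16-fold higher. In Tibetan 1 AHSG was 75.1-fold and TF 12.0-fold higher than in Tibetan 3, and APOA1 was at 0.745 of its level there. With 1 library against another these folds have no replicate check.

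AFP, AHSG and TF stood in like proportions in Large White 2 and 3 and in other proportions in Tibetan 1. The ratio of AFP to AHSG was 0.00382 in Tibetan 1, against 0.187, 0.208 and 0.204 in Large White 1, 2 and 3. The ratio of TF to AHSG was 0.960 in Tibetan 1, against 0.712, 0.370 and 0.350 in Large White 1, 2 and 3. Tibetan 1 therefore carried AHSG and TF at several FPKM with AFP close to 0.

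Over the 9 libraries the Pearson correlation of log2(FPKM + 1) was 0.97 between AHSG and TF, 0.90 between AFP and AHSG and 0.80 between AFP and TF. With APOA1 it was 0.43 for AFP, 0.12 for AHSG and -0.10 for TF. These coefficients describe 9 points that fall into 3 breeds. Over the 7 libraries without Large White 2 and 3 the correlation was 0.95 between AHSG and TF, 0.05 between AFP and AHSG and -0.17 between AFP and TF, and AFP did not exceed 0.205 FPKM in any of the 7. With APOA1 it was then 0.46 for AFP, -0.59 for AHSG and -0.78 for TF.

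The entries with a symbol whose pattern was most like each gene, by the same correlation over 9 libraries, differed between APOA1 and the others. For AFP they were FETUB at 0.994, LAS1L at 0.948 and COA7 at 0.936. For AHSG they were TF, FETUB at 0.903 and AFP, and for TF they were AHSG, METTL17 at 0.926 and AMBP at 0.890. For APOA1 they included CYB5RL at 0.998 and CPXM1 at 0.997. CPXM1, a carboxypeptidase-like protein, stood at 0.616 to 1.68 FPKM in the Tibetan libraries, against 22.5 to 29.9 FPKM in the Wujin and 27.9 to 34.7 FPKM in the Large White libraries, so CPXM1, like APOA1, was low in all Tibetan libraries and even in the other 6. FETUB, which encodes fetuin-B and lies next to AHSG in the RefSeq gene order, stood at 0.148, 0.238 and 0 FPKM in Tibetan 1, 2 and 3, and at 0.120, 0.0557 and 0.212 FPKM in Wujin 1, a and b. In Large White 1, 2 and 3 it stood at 0.661, 10.1 and 11.3 FPKM, so that the same libraries were high as for AFP and AHSG. FETUB, like AFP, passed the filter on low values only through Large White 2 and 3, so its test had to favour a difference. It fell by 2.44 ± 0.64 in Tibetan against Large White muscle (SE; limma, adjusted p = 0.00638) and by 0.56 without Large White 2 and 3 (adjusted p = 0.0233), and it was not called without Tibetan 1 and 2 (-2.61, adjusted p = 0.0668). It stood at -2.44 for Wujin minus Large White and was not called there (adjusted p = 0.0538).

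The neighbours of the 4 genes did not all share their pattern. ALB, the albumin gene, lies next to AFP and belongs to the same family, and it stood at 25.7, 9.91 and 0.342 FPKM in Tibetan 1, 2 and 3. It stood at 1.05, 0.996 and 0.428 FPKM in Wujin 1, a and b and at 1.24, 1.08 and 1.67 FPKM in Large White 1, 2 and 3. The ALB difference was 1.66 ± 0.86 for Tibetan minus Large White (SE; limma, adjusted p = 0.107), and without Tibetan 1 and 2 it turned to -0.79 (adjusted p = 0.0393). Albumin was thus high in Tibetan 1 and 2 and low in the Large White libraries where AFP was high. The ratio of ALB to AFP was 872 in Tibetan 1, against 6.04, 0.173 and 0.191 in Large White 1, 2 and 3, and the ratio of ALB to AHSG was 3.33 in Tibetan 1, against 0.0360 and 0.0388 in Large White 2 and 3. AFM, the afamin gene on the other side of AFP, did not exceed 0.0911 FPKM in any library. APOC3, the neighbour of APOA1 that encodes apolipoprotein C-III, stood at 38.5, 12.1 and 0 FPKM in Tibetan 1, 2 and 3, was listed at 0 in all Wujin libraries and stood at 0.207, 2.08 and 2.92 FPKM in Large White 1, 2 and 3. SIK3, the kinase gene on the other side of APOA1, stood at 8.86 to 12.0 FPKM over all 9 libraries.

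**Figure D3:**
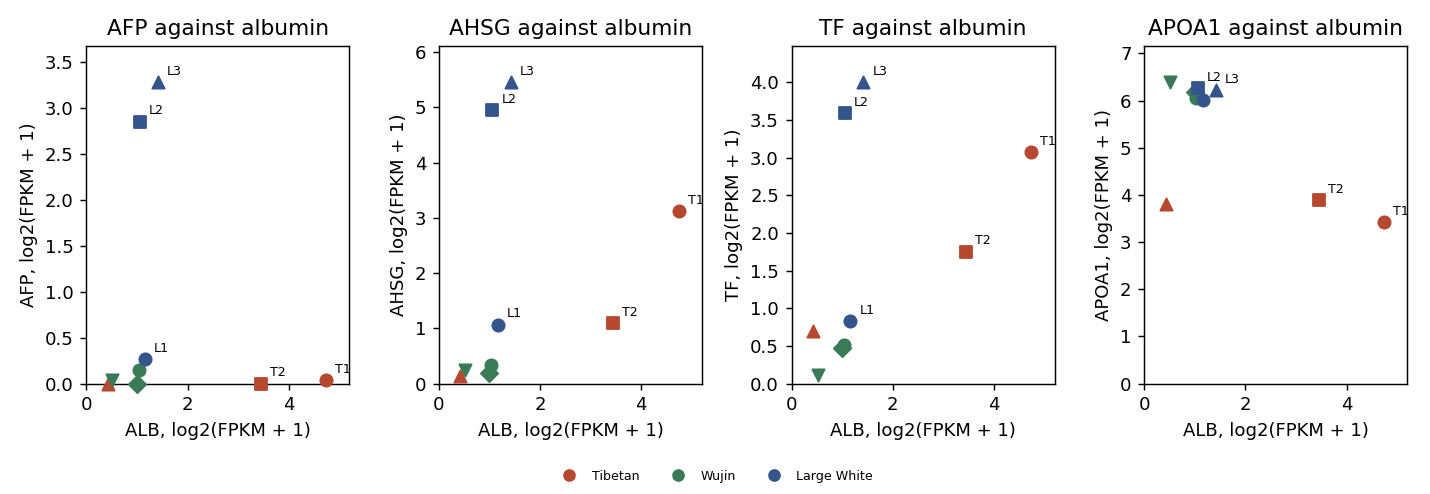
AFP, AHSG, TF and APOA1 against ALB, both as log2(FPKM + 1), with a point for each of the 9 libraries coloured by breed; T and L mark Tibetan and Large White libraries by number. Large White 2 and 3 sit high for AFP, AHSG and TF at low ALB (1.08 and 1.67 FPKM), Tibetan 1 sits at high ALB (25.7 FPKM) with AFP near 0, and for APOA1 the Tibetan libraries lie below the rest at every ALB level.

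Other plasma proteins made by hepatocytes give the setting of these 4 genes. Of 42 listed genes, 29 had an entry and 10 passed the filter on low values. Of these 10, 7 had a mean under 1 FPKM once the libraries of 1 breed were set aside, FETUB without Large White and ITIH4, C3 and APOC3 without Tibetan among them. They were thus admitted by the breed in which they are high, and the counts over the 10 describe them and support nothing. Between Tibetan and Large White ITIH4 and C3 rose (2 of the 10), FETUB and RBP4 fell (2 of the 10) and the other 6 did not pass the test. In the Wujin and Large White comparison 0 of the 10 were called by limma. Between Tibetan and Wujin ITIH4, C3, APOC3 and TTR rose (4 of the 10) and the other 6 did not pass the test. The APOC3 and TTR calls rested on Tibetan 1 and 2, since both genes were listed at 0 in Tibetan 3 and in all Wujin libraries, and without Tibetan 1 and 2 only ITIH4 and C3 were called. APOC3 and TTR were also not called without Large White 2 and 3 (adjusted p = 0.0703 and 0.0840). RBP4, the retinol carrier, was not called under median-ratio scaling (-0.24, adjusted p = 0.317) or without Large White 2 and 3 (-0.70, adjusted p = 0.0930).

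The summed level of the 29 genes varied widely between libraries of a breed. It was 143.6, 49.3 and 18.5 FPKM in Tibetan 1, 2 and 3, with 0, 3 and 14 of the genes listed at 0. It was 8.84, 7.73 and 6.90 FPKM in Wujin 1, a and b, with 7, 10 and 9 listed at 0, and 10.3, 32.9 and 40.3 FPKM in Large White 1, 2 and 3, with 6, 1 and 2 listed at 0. Tibetan 1 held the highest value of 23 of the 29 genes (79.3%), against 8.38% of all entries, and Large White 3 held that of 5. Large White 2 and 3 were both more than 2-fold above Large White 1 for 19 of the 28 genes with a value there (67.9%), against 4.61% of all entries.

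Several genes of the list were seen in Tibetan 1 and 2 as well as in Large White 2 and 3. TTR, the thyroxine and retinol carrier transthyretin, stood at 10.3, 3.00 and 0 FPKM in Tibetan 1, 2 and 3, was listed at 0 in all Wujin libraries and stood at 0.876, 3.17 and 3.38 FPKM in Large White 1, 2 and 3. APOA2, the second protein of high-density lipoprotein, stood at 8.30, 1.73 and 0 FPKM in Tibetan 1, 2 and 3, was listed at 0 in all Wujin libraries and in Large White 1 and stood at 1.64 and 3.02 FPKM in Large White 2 and 3. TF, TTR and APOA2 thus exceeded 1 FPKM in the same 4 libraries, Tibetan 1 and 2 and Large White 2 and 3. ITIH4, an inter-alpha-trypsin inhibitor heavy chain, was instead high in all Tibetan libraries at 13.2, 6.46 and 7.11 FPKM, against 0.115 to 0.187 FPKM in Wujin and 0.125 to 0.400 FPKM in Large White libraries (Tibetan minus Large White 2.90 ± 0.23, SE). It passed the filter only through the Tibetan libraries, so no p is given for it.

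**Figure D4:**
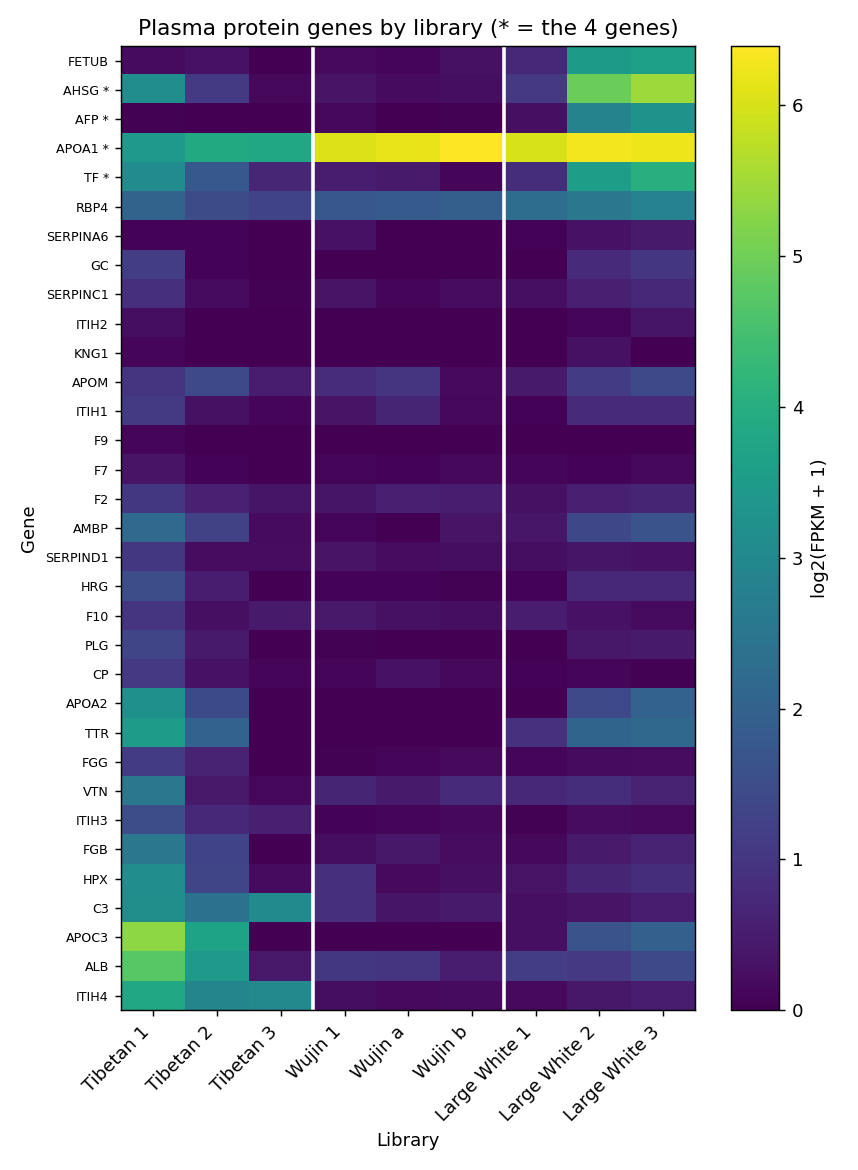
log2(FPKM + 1) of the 4 genes (starred) and the 29 measured plasma protein genes in each library, by breed, with genes ordered by the mean of Large White 2 and 3 minus the mean of Tibetan 1 and 2. FETUB, AHSG and AFP lead the order at the Large White end, APOA1 is high in all Wujin and Large White libraries, and ALB, APOC3 and ITIH4 stand at the Tibetan end.

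Genes that mark the hepatocyte itself were low. Of 30 listed, 21 had an entry, 15 of them stayed below 1 FPKM in every library and 1 passed the filter. The hepatocyte transcription factors HNF4A and FOXA2 reached at most 0.114 and 0.0540 FPKM. The gene past the filter was OTC, an enzyme of the urea cycle, which fell in Tibetan muscle against Large White by 2.21 ± 0.13 (SE; limma, adjusted p = 7.13e-07). The summed level of the 21 genes was 9.07, 3.12 and 0.999 FPKM in Tibetan 1, 2 and 3, 3.85, 6.61 and 4.78 FPKM in Wujin 1, a and b, and 8.00, 8.34 and 8.35 FPKM in Large White 1, 2 and 3. The sum with OTC in it did not separate Large White 2 and 3 from Large White 1. OTC alone averaged 3.53 FPKM over the Wujin and Large White libraries and 1.38 FPKM over the Tibetan and Wujin libraries. It was thus a large part of these sums, and sums without it were not taken. The number of the 21 genes listed at 0 was 2, 3 and 12 in Tibetan 1, 2 and 3, and 11, 8 and 6 in Wujin 1, a and b. In Large White 1, 2 and 3 it was 10, 6 and 5, so fewer were at 0 in Large White 2 and 3. Tibetan 1 held the highest value of 12 of the 21 genes (57.1%), against 8.38% of all entries. Large White 1 held that of 4, and Large White 2 and 3 that of 1 each. CYP2E1, a liver cytochrome, stood at 2.17 and 0.493 FPKM in Tibetan 1 and 2 and was listed at 0 in the other 7 libraries. Of 15 genes of visceral endoderm (the yolk sac layer that makes plasma proteins) and intestine, 9 had an entry, 6 of them stayed below 1 FPKM in every library and 1, TTR, passed the filter. Their summed level was 10.7, 3.28 and 0.325 FPKM in Tibetan 1, 2 and 3, 0.947, 1.89 and 1.38 FPKM in Wujin 1, a and b, and 2.59, 5.78 and 5.44 FPKM in Large White 1, 2 and 3. TTR, which is also in the list of plasma proteins, made up most of the sums of Tibetan 1 and 2 and of Large White 2 and 3. Without TTR the other 8 genes summed to 0.347, 0.281 and 0.325 FPKM in Tibetan 1, 2 and 3, 0.947, 1.89 and 1.38 FPKM in Wujin 1, a and b, and 1.72, 2.61 and 2.06 FPKM in Large White 1, 2 and 3, so they were lower in all Tibetan libraries than in the other 6. The part of liver or other cells in the levels of AFP, AHSG and TF was not tested.

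The genes by which these libraries stood apart were counted over the whole table. At 1 FPKM or more and at least 3-fold above every other library, Large White 2 and 3 together held 9 of the 19643 entries, of which the 4 with a symbol were AFP (30.4-fold from the lower of both to the highest other library), FETUB (15.3-fold), CORT (5.05-fold) and AHSG (3.88-fold). CORT encodes the neuropeptide cortistatin. The 5 entries without a symbol included the one of highest level, ENSSSCG00000024898. It stood at 677 and 936 FPKM in Large White 2 and 3 and was listed at 0 in every other library. ENSSSCG00000002476 stood at 50.5 and 64.6 FPKM there (14.7-fold). The 4 genes with a symbol are thus only part of what set these libraries apart. By the same rule Tibetan 1 held 57 entries, 26 of them with a symbol, and 9 of these were in the list of plasma proteins. A2M, the protease inhibitor alpha-2-macroglobulin, stood at 191.9 FPKM in Tibetan 1 and at most 0.394 FPKM in any other library.

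Among genes of the transferrin cycle and of iron in cells, 13 of 18 had an entry and 6 passed the filter. Between Tibetan and Large White 1 of the 6 rose, 2 fell and 3 were not called, with a median difference of -0.10. The counts were 0, 1 and 5 for Wujin minus Large White and 1, 2 and 3 for Tibetan minus Wujin, and under median-ratio scaling 5 of the 6 rose and 1 fell between Tibetan and Large White. By that scaling 4245 of the 13106 tested entries were called higher and 4327 lower. On the deposited scale 13% of all tested entries were called higher and 63.2% lower for Tibetan minus Large White. The shares were 1.67% and 4.85% for Wujin minus Large White and 13.8% and 53.9% for Tibetan minus Wujin. TFRC, the receptor that takes up iron-laden transferrin, stood at 18.5, 21.4 and 25.6 FPKM in Tibetan 1, 2 and 3, at 2.10, 3.53 and 4.65 FPKM in Wujin 1, a and b, and at 5.97, 5.99 and 6.87 FPKM in Large White 1, 2 and 3. All Tibetan libraries lay above all others, with a difference of 1.64 ± 0.21 from Large White (SE; limma, adjusted p = 9.59e-05). SLC40A1, the iron exporter ferroportin, was the reverse, at -1.58 ± 0.18 (SE; limma, adjusted p = 4.19e-05). TFRC did not overlap between breeds, whereas the TF values of Tibetan and Large White did.

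Among genes that handle high-density lipoprotein, 16 of 19 had an entry and 9 passed the filter. Of these 9, 2 had a mean under 1 FPKM once 1 breed was set aside, ABCA1 without Large White and APOA2 without Tibetan. They were thus admitted by the breed in which they are high, and neither was called in any pair of breeds on the deposited scale. Between Tibetan and Large White 2 of the 9 rose, 4 fell and 3 were not called, with a median difference of -0.68, and the counts were 0, 0 and 9 for Wujin minus Large White and 2, 4 and 3 for Tibetan minus Wujin. Of all tested entries 13% were called higher and 63.2% lower between Tibetan and Large White. Between Tibetan and Wujin the shares were 13.8% and 53.9%, and 1.67% and 4.85% between Wujin and Large White. SCARB1, the receptor for high-density lipoprotein, fell with APOA1 and stood at 2.94, 4.14 and 6.21 FPKM in Tibetan 1, 2 and 3, against 14.1 to 20.4 FPKM in Wujin and 18.4 to 20.0 FPKM in Large White libraries. Its difference between Tibetan and Large White was -1.96 ± 0.22 (SE; limma, adjusted p = 3.65e-05). APOE, apolipoprotein E of lipoprotein particles, stood at 47.7, 18.2 and 21.1 FPKM in Tibetan 1, 2 and 3, against 95.4 to 138 FPKM in Wujin and 154 to 194 FPKM in Large White libraries (-2.69 ± 0.32, SE, for Tibetan minus Large White; limma, adjusted p = 5.15e-05). The 2 genes that rose in Tibetan muscle were CLU and APOD, which encode clusterin, a secreted chaperone also called apolipoprotein J, and apolipoprotein D, a lipocalin. CLU stood at 103, 103 and 50.5 FPKM in Tibetan 1, 2 and 3, against 3.53 to 11.2 FPKM in Wujin and 2.14 to 3.41 FPKM in Large White libraries. APOE, SCARB1, CLU and APOD kept these directions and calls under median-ratio scaling, at -1.73, -1.09, 5.32 and 3.87, where 3 of the 9 genes rose and 3 fell. By that scaling 4245 of the 13106 tested entries were called higher and 4327 lower between Tibetan and Large White.

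Among regulators of the AFP gene, 11 of 14 had an entry and 5 passed the filter. Between Tibetan and Large White 2 of the 5 rose, 2 fell and 1 was not called, with a median difference of -0.01, and the counts were 1, 0 and 4 for Wujin minus Large White and 1, 2 and 2 for Tibetan minus Wujin. The shares of all tested entries called higher and lower were 13% and 63.2% for Tibetan minus Large White. They were 1.67% and 4.85% for Wujin minus Large White and 13.8% and 53.9% for Tibetan minus Wujin. ZHX2 and ZBTB20 are repressors of AFP in mouse liver after birth. ZHX2 stood at 9.07, 6.88 and 9.99 FPKM in Tibetan 1, 2 and 3, against 1.94 to 3.14 FPKM in Wujin and 2.10 to 2.27 FPKM in Large White libraries (1.58 ± 0.17, SE, for Tibetan minus Large White; limma, adjusted p = 2.60e-05). ZBTB20 stood at 4.79, 6.76 and 3.70 FPKM in Tibetan 1, 2 and 3, at 3.83, 3.25 and 3.83 FPKM in Wujin 1, a and b, and at 1.76, 1.54 and 1.25 FPKM in Large White 1, 2 and 3. It was higher than in Large White by 1.25 ± 0.18 in Tibetan (adjusted p = 0.000220) and by 0.88 ± 0.18 in Wujin muscle (SE; limma, adjusted p = 0.0355), and the Wujin call was lost without Large White 2 and 3, at 0.74 (adjusted p = 0.585). Over Large White 1, 2 and 3, where AFP ran from 0.205 to 8.75 FPKM, ZHX2 stood at 2.27, 2.10 and 2.20 FPKM. These are values of single libraries, and a link of either repressor to AFP was not tested. Under median-ratio scaling 3 of the 5 regulators rose and 1 fell between Tibetan and Large White. By that scaling 4245 of the 13106 tested entries were called higher and 4327 lower.

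Among partners of fetuin-A, 10 of 12 had an entry and 9 passed the filter. Between Tibetan and Large White 7 of the 9 fell and 2 were not called, with a median difference of -1.68, and the counts of lower genes were 2 for Wujin minus Large White and 6 for Tibetan minus Wujin, with 0 higher in each. Of all tested entries 63.2%, 4.85% and 53.9% were called lower in these comparisons, in that order. The 9 genes are too few to set the counts for Tibetan apart from that background. Under median-ratio scaling 5 fell and 3 rose between Tibetan and Large White, where 4327 of the 13106 tested entries were called lower and 4245 higher. SPP1, the phosphoprotein osteopontin that is found with fetuin-A at sites of mineral, stood at 0.829, 0.896 and 2.73 FPKM in Tibetan 1, 2 and 3, at 7.85, 24.9 and 26.5 FPKM in Wujin 1, a and b, and at 56.9, 165 and 77.9 FPKM in Large White 1, 2 and 3. The 3 breeds did not overlap, and the difference was -5.28 ± 0.52 for Tibetan minus Large White (adjusted p = 1.59e-05) and -2.30 ± 0.52 for Wujin minus Large White (SE; limma, adjusted p = 0.0395). The Wujin call was lost under median-ratio scaling, at -2.07 (adjusted p = 0.0600), without Large White 2 and 3, at -1.65 (adjusted p = 0.595), and without Tibetan 1 and 2, at -2.30 (adjusted p = 0.0723). INSR, the insulin receptor whose kinase fetuin-A inhibits, was not called in any pair of breeds on the deposited scale, and under median-ratio scaling it was called higher in Tibetan than in Large White muscle, at 1.17 (adjusted p = 0.00226).

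Markers of other cells that muscle samples can hold were set beside APOA1, since it differed between breeds. All 7 measured fibroblast markers passed the filter and fell in Tibetan muscle against both other breeds, and their summed level was 321 to 359 FPKM in the Tibetan libraries, against 3065 to 5617 FPKM in the Wujin and 5357 to 5994 FPKM in the Large White libraries. The same 7 were called lower under median-ratio scaling. Of the 13106 tested entries, 63.2% were called lower for Tibetan minus Large White and 53.9% for Tibetan minus Wujin on the deposited scale. Under median-ratio scaling 4327 and 3978 entries were called lower in these comparisons, and 4245 and 4052 higher. The summed level of 11 measured erythroid genes was 188 to 608 FPKM in the Tibetan libraries, against 1529 to 3897 FPKM in the Wujin and 1955 to 3769 FPKM in the Large White libraries. That of 6 endothelial markers was 62.6 to 78.9 FPKM in the Tibetan libraries, against 100.5 to 122 FPKM in the Wujin and 113 to 120 FPKM in the Large White libraries. Among the 6 endothelial markers, 3 fell and 0 rose between Tibetan and Large White on the deposited scale, but with median-ratio scaling 1 fell and 3 rose. Of the 4 erythroid genes past the filter 3 fell on both scales, and with median-ratio scaling the other rose. Fibroblast, erythroid and endothelial sums were thus lower in all Tibetan libraries, as APOA1 was, and their part in the APOA1 difference was not tested. The median tested entry was also lower there, at 3.15 to 3.61 FPKM, against 4.84 to 7.2 FPKM in the other libraries. Relative to the median entry, Tibetan minus Large White list medians were -3.3 (fibroblast), -1.07 (erythroid) and 0.42 (endothelial). Sums of the Schwann cell, fetuin-A partner, AFP regulator and insulin-like growth factor carrier lists were lower in all Tibetan libraries too. Between Large White 1 and Large White 2 and 3 the fibroblast sums were 5459 against 5994 and 5357 FPKM, so they did not move with AFP, AHSG and TF there.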

How the data were processed

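RNA of embryonic longissimus dorsi was measured in 9 libraries, 3 for each of 3 breeds. The authors deposited 1 table of FPKM for the whole series, per the file headers; TopHat is named without a version in the submitters' processing notes, and of the quantifier, genome build and annotation each is not given in the sources used here, so no position is printed. FPKM are not counts, and relative depth was estimated from the steps between values below 0.2 FPKM. FPKM scale every library to its own total, so a few very abundant genes shift all other values, and the median of all tested entries is given beside each comparison for that reason. The table has 19643 entries and 19597 distinct identifiers, and a table of gene names gave a symbol for 11179 entries. Gene order and the TF synonym came from RefSeq's pig table (Sscrofa11.1), used for names and neighbours alone. A column was assigned to a library by its header. Both Wujin columns under 1 shared header were taken as libraries of that breed without a number, and 0 columns of sample values were left unused. No pair of columns was identical.

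Entries whose mean reached 1 FPKM were fitted as log2(FPKM + 1) with limma 3.58.1 in R 4.3.3 (lmFit, contrasts.fit, eBayes with trend) over all 9 libraries with 1 shared spread, and Benjamini-Hochberg adjustment ran over 13106 entries. The fit was also run on simulated data in which each gene had the same spread in every library. No simulated library stood apart, so that run does not bear on results that rest on Large White 2 and 3 or Tibetan 1 and 2. The settings varied were the pseudocount (0.1 and 5), the filter (none, or a mean of 5 FPKM), the scaling (median ratios, quantiles, or equal FPKM totals with and without the 50 highest genes), limma's trend and the libraries in the fit (those of the breeds compared, or each left out in turn), and the replicate number was added as a block. Leaving out both Large White 2 and 3, or both Tibetan 1 and 2, was chosen after seeing the data, as was the count of entries at least 3-fold above every other library. Genes named were the 4 genes, the 6 most abundant and the 4 of smallest p in each of 15 lists, and the 3 entries with the most similar pattern for each gene, of which some are not reported here. AFM, SIK3, CORT, A2M and the lowest-level list genes named, such as FOXA2, CYP2E1 and APOA2, may fall outside that rule and were picked with their values known. The 4 genes and the lists were chosen with earlier results of these data known. Lists were described by counts and medians and were not tested.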

Additional observations from a re-analysis of the deposited data

How the results depend on the processing

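Over 250 alternative values of the 4 genes, 235 kept their direction and call, 7 gained a call, 3 lost it and 5 changed sign. APOA1 was called in both comparisons with Tibetan under every alternative run, at -2.59 to -1.52 for Tibetan minus Large White and -2.73 to -1.80 for Tibetan minus Wujin. For Wujin minus Large White it was negative without Wujin b (-0.05) and without Large White 1 (-0.04).

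For Tibetan minus Large White, leaving out 1 library moved AFP over -3.06 to -1.55, with the call lost without Large White 2, AHSG over -3.75 to -1.56, called without Tibetan 1 or Large White 1, and TF over -1.96 to -0.37, called without Large White 1. Without Large White 2 and 3 AFP was -0.25, AHSG 0.38 and TF 1.01, none called, and without Tibetan 1 and 2 AFP was -2.14 and not called. For Wujin minus Large White the ranges were -3.01 to -1.50 for AFP, -4.95 to -2.75 for AHSG, -3.43 to -1.85 for TF and -0.05 to 0.12 for APOA1, with AFP, AHSG and TF called without Large White 1. For Tibetan minus Wujin TF ran over 0.86 to 2.05 and was called without Large White 1, and AHSG was -0.12 without Tibetan 1 and 2. The causes were not tested. Where both libraries of a pair are left out, the lone library of that breed is assumed to vary like the others.

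The count of called entries was 9983 for Tibetan minus Large White and 8871 for Tibetan minus Wujin, and 5533 and 5181 at a mean of at least 5 FPKM, where fewer entries are tested. For Wujin minus Large White it was 855, against 270 and 1831 with pseudocounts of 0.1 and 5, 402 at a mean of at least 5 FPKM, 412 under median-ratio scaling and 453 under equal totals without the 50 highest genes. It was 280 with the libraries of both breeds alone, 66 to 1633 with 1 library left out (66 without Large White 3, 88 without Large White 2, 184 without Large White 1, 141 without Wujin a, 430 without Wujin 1, 1633 without Wujin b, 390 without Tibetan 1 and 409 without Tibetan 3), 31 without Large White 2 and 3 and 289 without Tibetan 1 and 2. Under median-ratio scaling the median shift of Tibetan minus Large White was -0.01 and 4245 entries were called higher and 4327 lower, against 1703 and 8280 on the deposited scale; for Tibetan minus Wujin the split was 4052 and 3978, against 1809 and 7062, and for Wujin minus Large White 245 and 167, against 219 and 636. Without Large White 2 and 3, 0 genes of the plasma protein, hepatocyte, iron, high-density lipoprotein, AFP regulator and fetuin-A lists were called for Wujin minus Large White. AFP and TF did not reach a mean of at least 5 FPKM and have no value there.

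With the replicate number as a block, possible for Tibetan minus Large White alone because the other Wujin columns carry no number, AFP was -2.12 (adjusted p = 0.0263), AHSG -2.37 (0.186), TF -0.97 (0.437) and APOA1 -2.46 (0.000126), and no call of the 4 genes changed. Deviations of same-numbered libraries correlated at 0.013, -0.023 and -0.076, against -0.111 to 0.125 for libraries of different number. No sign of pairing by number was thus seen, but deviations from the mean of 3 libraries are tied to each other. Whether the numbers mark a shared batch was not tested. Depth is known only in relative terms, and AFP lies near the lowest values of the table in 7 libraries.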

Other observations

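Carriers of insulin-like growth factors are a further group of plasma proteins, of which IGFALS comes mainly from the liver. Of 7 listed genes, 5 had an entry and 4 passed the filter. Between Tibetan and Large White 0 rose, 3 fell and 1, IGFBP6, was not called (limma; -0.30, adjusted p = 0.261), where 63.2% of all tested entries were called lower. Between Tibetan and Wujin all 4 fell, where 53.9% of entries did. The counts of lower genes in these comparisons were 3 and 3 with median-ratio scaling and 2 and 3 under quantile normalization. Of the 13106 tested entries, 4327 and 3978 were called lower with median-ratio scaling and 4350 and 4158 under quantile normalization. With 4 genes, the counts are too few to set apart from such a background. Between Wujin and Large White 1 rose, IGFALS, and it was not called without Large White 2 and 3 (0.75, adjusted p = 0.576) or without Tibetan 1 and 2 (0.76, adjusted p = 0.0613). IGFALS, which encodes the acid-labile subunit that holds these factors in plasma, stood at 0.937, 1.31 and 0.917 FPKM in Tibetan 1, 2 and 3, at 8.73, 6.82 and 5.93 FPKM in Wujin 1, a and b, and at 3.81, 4.16 and 3.41 FPKM in Large White 1, 2 and 3. The breeds did not overlap, and the difference was -1.22 ± 0.15 for Tibetan minus Large White (SE; limma, adjusted p = 7.84e-05), which was not called under quantile normalization (-0.36, adjusted p = 0.142). IGFBP5, a binding protein made by muscle itself, stood at 9.43, 22.0 and 20.1 FPKM in Tibetan 1, 2 and 3, against 53.5 to 74.5 FPKM in Wujin and 65.0 to 94.2 FPKM in Large White libraries (-2.20 ± 0.29, SE, for Tibetan minus Large White; adjusted p = 0.000112).

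Among 9 measured markers of skeletal muscle, 5 rose, 3 fell and 1 was not called between Tibetan and Large White. NEB, MYF6, DES, MYH8 and ACTN2 rose, MYOD1, MYF5 and MYH3 fell, and ACTA1 was not called. The myosin heavy chain genes moved most, MYH8 by 5.91 ± 0.14 (adjusted p = 1.77e-08) and MYH3 by -4.79 ± 0.16 (SE; limma, adjusted p = 5.87e-08). The reason for these differences was not tested. In that comparison 13% of all tested entries were called higher and 63.2% lower on the deposited scale. With median-ratio scaling 4245 of the 13106 entries were called higher and 4327 lower. The macrophage markers, of which 4 passed the filter, gave counts of 0 higher, 2 lower and 2 not called, which became 1 higher, 0 lower and 3 not called with median-ratio scaling, and the 3 Schwann cell markers past it gave 1 higher and 2 lower. The adipocyte marker past the filter was not called, but was called higher in Tibetan muscle under quantile normalization, at 0.62.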
